A study of Caenorhabditis elegans with 10 samples.

Results

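Oocytes and early embryos of *Caenorhabditis elegans* are nearly silent in transcription, and protein production there is set by RNA-binding proteins that hold back, release or destroy stored maternal mRNAs. The genes examined here encode such regulators: CCCH zinc finger proteins, PUF, Nanos and CPEB proteins, cap-binding and poly(A)-linked factors, and regulators of the choice between sperm and oocyte. The mRNAs of these regulators are often themselves under translational control. DLC-1 is a dynein light chain of the LC8 family, a small dimeric hub protein part of the dynein motor and also of complexes without it, including those of the germline regulator FBF-2.

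The 35 genes were chosen by name as translational regulators of oocytes, early embryos and the sperm or oocyte decision, without the FBF, GLD and germ granule scaffold genes. Of these 35 genes, 11 had a row in the authors' deposited table of RNAs enriched with FLAG-tagged DLC-1, which holds 2732 genes, and 24 are not listed. The series compares 5 FLAG immunoprecipitates with 5 inputs, all from whole-worm extracts of synchronized young adults that carried 3xFLAG::DLC-1, so germline and soma were both present. Immunoprecipitates from worms without the tag were not analysed here, and the labels do not say whether the numbered replicates came from separate cultures, so p-values may measure technical spread alone. Input libraries were primed with oligo-dT and immunoprecipitated RNA was not enriched, so library preparation and group cannot be told apart. The table gives no values per library, so library depth is unknown and no sample's own value can be shown.

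A gene is in the authors' deposited table only with a log2 fold change above 1 and an adjusted p under 0.01, from a one-sided test for a higher level in the immunoprecipitate. Of 20328 genes that the authors tested, a number recovered from their adjusted p-values, 13.4% are listed. Of the 19983 protein-coding genes of the WBcel235 reference, 10.6% are listed, and that reference includes genes that adults may not express. The 11 of 35 members, 31.4%, stand above both shares. A gene that is not listed could have been too weakly expressed to test, equal in both groups, higher in the input, higher in the immunoprecipitate by under 2-fold, or higher with too wide a spread to pass, which cannot be told apart. Whole-worm extract was visible in the table through genes of several tissues: of the marker genes, 4 of 7 germline, 2 of 11 oocyte, 1 of 13 sperm, 4 of 5 muscle, 3 of 5 intestine, 3 of 6 neuron and 1 of 4 hypodermis genes were listed. In such bulk samples fewer cells of a type and less RNA per cell cannot be told apart. The oocyte markers *oma-1*, *lin-41* and *puf-5* are also among the 35 genes.

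The mRNAs of a CPEB protein, a PUF protein, the 4E-T homologue, a further CPEB protein, the Ataxin-2 homologue and a La-related protein were higher in the immunoprecipitates by 4.41-fold to 8.31-fold over the inputs. Those of a P granule protein, the DAZ homologue, the GLD-2 partner RNP-8, a CELF-type protein and the polarity factor MEX-5 were 2.12-fold to 2.40-fold higher. All these folds are those of the authors' deposited table. The median of the listed members was 2.14 (log2 fold change, from the authors' deposited table), against 2.13 for all listed genes and 1.81 for listed protein-coding genes. Listed genes whose mean reached 100 normalized counts, as it did in all 11 members, stood at 1.75 at their median (log2, from the authors' deposited table). The highest log2 fold change of the 11 members was 3.06 and the lowest 1.09, in the authors' deposited table, where all listed genes reach 11.4.

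**Figure D1:**
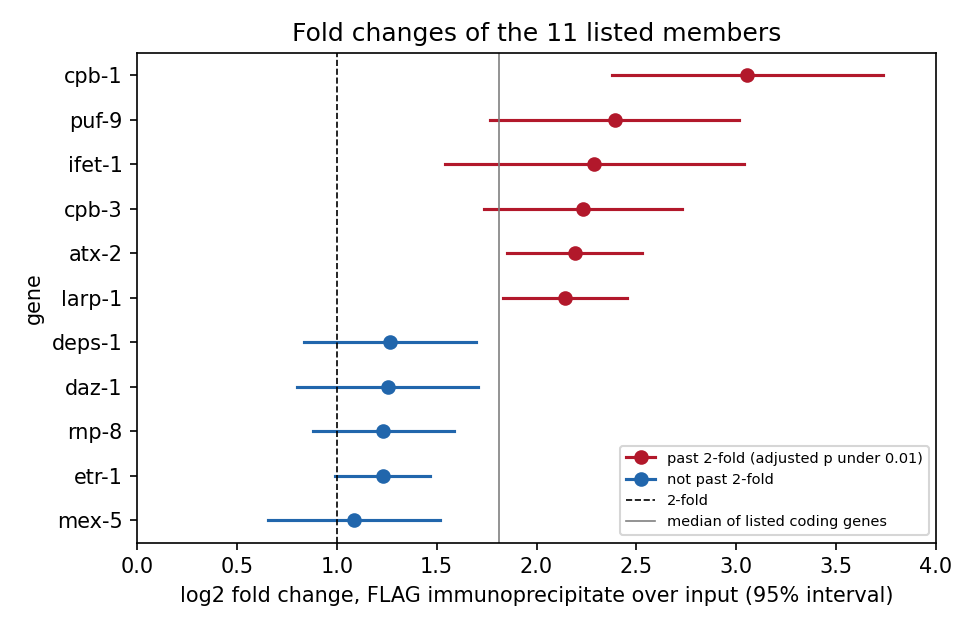
The horizontal axis gives the log2 fold change of FLAG immunoprecipitate over input for the 11 listed members, with points for the deposited values and lines for 95% normal intervals from the deposited standard errors. The dashed line marks 2-fold, the grey line the median of listed protein-coding genes at 1.81, and the 6 genes in red, at 2.14 to 3.06, passed a test against 2-fold while the 5 in blue, at 1.09 to 1.27, did not.

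Among the CPEB proteins, which bind cytoplasmic polyadenylation elements in the 3′ ends of mRNAs, *cpb-1* and *cpb-3* were listed. The gene *cpb-1*, needed for the progress of spermatogenesis, lies on chromosome III from 9322310 to 9324913 (WBcel235). It stood at a log2 fold change of 3.06 ± 0.35 (SE), or 8.31-fold with a 95% interval of 5.19 to 13.3, in the authors' deposited table (adjusted p = 1.42e-17). This was the highest fold of the 11 genes and the value at position 376 among 2116 listed protein-coding genes. Its mean over the libraries was 603 normalized counts in the authors' deposited table.

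The gene *cpb-3* encodes a CPEB protein of the hermaphrodite germline and lies on chromosome I from 5788634 to 5791752. It stood at 2.23 ± 0.25 (log2 fold change ± SE), or 4.70-fold, with a mean of 2595 normalized counts, all from the authors' deposited table (adjusted p = 1.39e-17). The difference of *cpb-1* minus *cpb-3* was 0.82 in log2 fold change with a 95% interval of -0.02 to 1.66, so their order was not resolved. This interval, like those that follow, takes the deposited standard errors as independent, although all genes share the same libraries. Of the other CPEB genes, *fog-1*, which directs germ cells to the sperm fate, and *cpb-2* are not listed.

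The PUF proteins bind short sequences in mRNA 3′ ends and mostly repress. Of 8 such genes among the members 1 was listed, near the share of all tested genes, 13.4%. The listed gene was *puf-9*, known mainly from the soma, where it acts with the heterochronic pathway. It is on chromosome X from 5841592 to 5845987, the 1 member on that chromosome. Its log2 fold change was 2.39 ± 0.32 (SE), or 5.25-fold with a 95% interval of 3.41 to 8.09, in the authors' deposited table (adjusted p = 5.02e-13). With 374 normalized counts, its mean over the libraries was the lowest of the 11 genes (from the authors' deposited table).

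The oocyte PUF genes *puf-3*, *puf-5*, *puf-6*, *puf-7* and *puf-11* are not listed, and neither are *puf-8*, which acts in germline stem cells and in the sperm or oocyte decision, nor *puf-12*. The sequences of *puf-3* and *puf-11*, and of *puf-6* and *puf-7*, are known to be close, and how the authors counted reads that map to several places is not given in the sources used here. Reads of such pairs may have been split or dropped, which was not tested.

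Factors that link the cap or the poly(A) tail to repression gave 3 further listed genes. Their deposited log2 fold changes were 2.14 to 2.29, against medians of 2.13 for all listed genes and 1.81 for listed protein-coding genes. The gene *ifet-1* encodes the 4E-T homologue, which binds the cap-binding protein eIF4E and represses maternal mRNAs, and lies on chromosome III from 4471403 to 4475150. It had the highest mean of the listed members, 5632 normalized counts, and a log2 fold change of 2.29 ± 0.38 (SE), or 4.89-fold, in the authors' deposited table (adjusted p = 1.26e-08). That standard error was the largest of the 11 genes, and the 95% interval of the fold, 2.91 to 8.21, was correspondingly wide.

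The Ataxin-2 homologue gene *atx-2*, whose product associates with poly(A)-binding protein and acts in germline proliferation and sex determination, lies on chromosome III from 10461389 to 10468051. It stood at 2.19 ± 0.17 (log2 fold change ± SE), or 4.57-fold, in the authors' deposited table (adjusted p = 2.09e-35). The La-related gene *larp-1*, needed for normal oogenesis, lies on the same chromosome from 5008925 to 5017650. It stood at 2.14 ± 0.16 (log2 fold change ± SE), or 4.41-fold, in the authors' deposited table (adjusted p = 3.09e-40). With small standard errors, *larp-1* and *atx-2* ranked 352 and 408 by p among the 20328 tested genes, ahead of *cpb-3* at 871 and *cpb-1* at 874, which have larger folds.

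Of the oogenesis regulators with RNA recognition motifs, *daz-1* and *rnp-8* were listed at low folds. The DAZ homologue gene *daz-1*, needed for oogenesis, lies on chromosome II from 5456305 to 5458609 and stood at 1.26 ± 0.23 (log2 fold change ± SE), or 2.39-fold, in the authors' deposited table (adjusted p = 3.14e-07). The gene *rnp-8*, whose product joins the cytoplasmic poly(A) polymerase GLD-2 in promoting oogenesis, lies on chromosome I from 364510 to 368579. It stood at 1.23 ± 0.18 (log2 fold change ± SE), or 2.35-fold, in the authors' deposited table (adjusted p = 6.24e-11). Its span overlaps that of the coding gene *icpp-55* by 310 bp, and *icpp-55* is itself listed, at 1.48 ± 0.35 (log2 fold change ± SE) and 94.5 mean normalized counts in the authors' deposited table. The strand setting of the counting is not given in the sources used here, so reads from the shared stretch cannot be assigned to either gene.

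The CELF-type gene *etr-1*, known from muscle development, lies on chromosome II from 162423 to 170631. Its log2 fold change was 1.23 ± 0.12 (SE), or 2.35-fold, in the authors' deposited table (adjusted p = 8.27e-23). It had the smallest standard error of the 11 genes. The P granule gene *deps-1*, which is also needed for RNA interference in the germline, lies on chromosome I from 506473 to 509056 and stood at 1.27 ± 0.22 (log2 fold change ± SE), or 2.40-fold, in the authors' deposited table (adjusted p = 5.32e-08). Its span overlaps a coding gene that is not listed by 109 bp, and that of *larp-1* contains a small nucleolar RNA gene of 189 bp that is not listed. The other 8 listed members overlap no gene of the reference.

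Near the share of all tested genes, 13.4%, 1 of the 7 CCCH zinc finger genes was listed. This was *mex-5*, whose product sets up the anterior-posterior difference of the zygote and clears germ plasm proteins from the anterior, on chromosome IV from 13353723 to 13356104. It had the lowest fold of the 11 genes at 1.09 ± 0.22 (log2 fold change ± SE), or 2.12-fold, with a mean of 5100 normalized counts, all from the authors' deposited table (adjusted p = 3.46e-06). Its partner *mex-6* is not listed, nor are the oocyte maturation genes *oma-1* and *oma-2* or the embryonic regulators *mex-1*, *pie-1* and *pos-1*. Whether *mex-5* and *mex-6* differ was not tested, since an unlisted gene has no value.

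Also not listed are *lin-41*, the TRIM-NHL regulator of oocyte growth, *mex-3*, a KH domain repressor, *spn-4*, a maternal RNA-binding protein of the embryo, and the Nanos genes *nos-1* and *nos-2*, which act in primordial germ cells. The same holds for *fog-3*, a Tob protein of the sperm fate, for *sup-26*, a regulator of *tra-2*, and for *mip-1* and *mip-2*, which encode LOTUS domain proteins of P granules. By family, none of the 2 Nanos and 2 LOTUS domain genes, 1 of 8 PUF, 1 of 7 CCCH, 2 of 4 CPEB and 3 of 5 genes with RNA recognition motifs were listed. Of all tested genes 13.4% were listed, and of the members 31.4%. The counts by family are small and were not tested.

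Every listed gene has passed the authors' test against no change, so the folds were also tested against 2-fold, with a one-sided normal test on the deposited log2 fold change and standard error. Whether the authors' fitting pulled the fold changes toward 0 is not stated in the sources used here. The tests and intervals take the deposited values as they stand. Benjamini-Hochberg adjustment ran over all 20328 tested genes, and 6.64% of them passed at 0.01, or 4.96% of protein-coding genes of the reference. Of the 35 members 6 passed, 17.1%: *larp-1* (adjusted p = 1.46e-11), *atx-2* (1.31e-10), *cpb-1* (5.68e-08), *cpb-3* (1.49e-05), *puf-9* (1.42e-04) and *ifet-1* (0.00588). The other 5 listed members did not pass, the nearest being *etr-1* (adjusted p = 0.295) with a 95% interval of 1.99-fold to 2.77-fold. Against 4-fold none of the 11 passed at 0.01, and *cpb-1* had an adjusted p of 0.0438, while 440 genes of the whole table passed.

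The test against 2-fold used these same folds, and the 6 genes that passed had higher folds than the 5 that did not. No listed member lay between 1.27, the value of *deps-1*, and 2.14, that of *larp-1*, an interval that holds 916 of the 2116 listed protein-coding genes, or 43.3%. In the order of fold only 1 of 10 neighbouring pairs had a 95% interval that excluded 0, *larp-1* minus *deps-1*, at 0.88 with an interval of 0.34 to 1.41 in log2 fold change. Among the 6 upper genes 2 of 15 pairs had an interval excluding 0, *cpb-1* minus *atx-2* (0.86, 0.10 to 1.62) and *cpb-1* minus *larp-1* (0.91, 0.17 to 1.66). Among the 5 lower genes it was 0 of 10 pairs. The place of the gap was read from these same values, so it describes them and was not tested.

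The listed members rested on more reads than most listed genes. Their median of the mean over libraries was 1864 normalized counts, against 375 for listed protein-coding genes and 222 for all listed genes (from the authors' deposited table). These means are not divided by transcript length and show read support, not a level. Each member was set beside the other listed protein-coding genes whose mean was within 2-fold of its own. The fold of *cpb-1* exceeded that of 89.5% of 744 such genes, and the fold of *puf-9* that of 77.8% of 699. For *ifet-1* the share was 48.5% of 103 genes and for *larp-1* 41.8% of 122. Around *ifet-1*, listed genes of like mean reached 2.37 at their median (log2 fold change). The lowest share was that of *mex-5*, 6.61% of 121 genes.

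**Figure D2:**
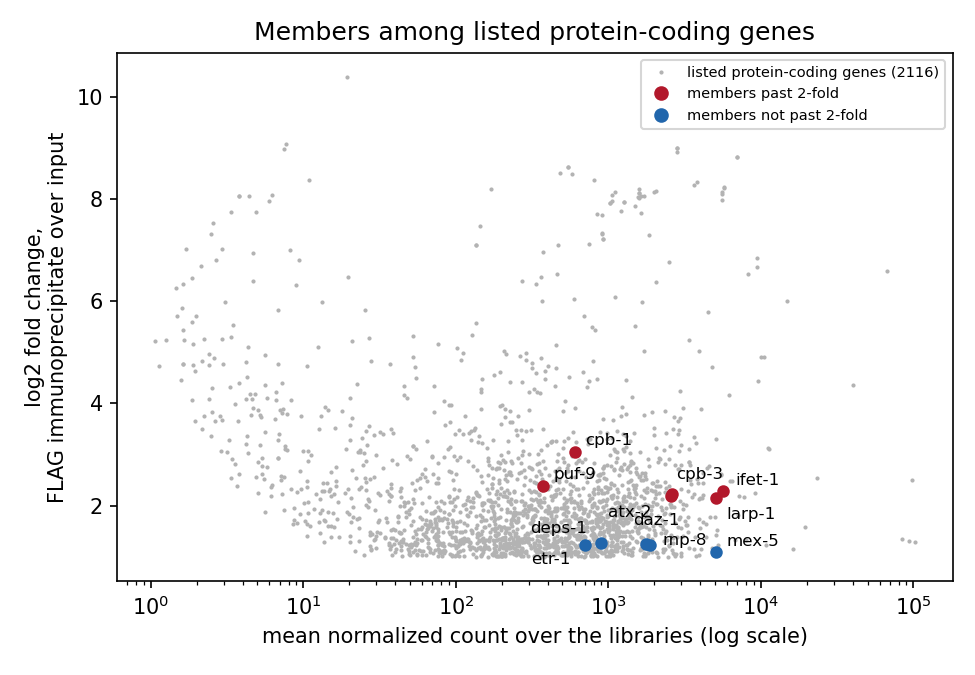
Each grey dot is 1 of 2116 listed protein-coding genes, with its mean normalized count on a log axis and its log2 fold change of immunoprecipitate over input. Of the 11 members, at means of 374 to 5632, 10 lie to the right of the median gene and *puf-9* lies at it, and none lies among the genes above a log2 fold change of 4.

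The standard error of the log2 fold change also differed among members. For *ifet-1* it was 0.38, and 3 of the 103 other listed protein-coding genes of like mean had a larger one, the median there being 0.18. For *cpb-1* it was 0.35, and 97 of 744 such genes had a larger one. For *etr-1* it was 0.12, and 648 of 751 such genes had a larger one. The values of single libraries that would show which of them differ were not analysed here.

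**Figure D3:**
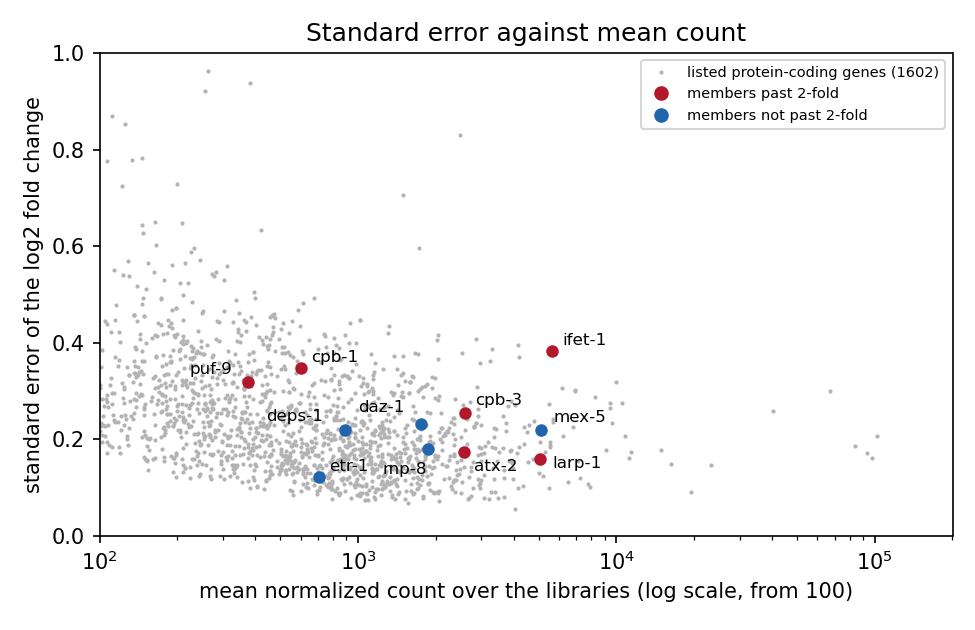
The vertical axis gives the standard error of the log2 fold change and the horizontal axis, on a log scale from 100, the mean normalized count of 1602 listed protein-coding genes (grey; 514 lie outside the axes) and of members (coloured). At a mean of 5632 normalized counts *ifet-1* lies above nearly all genes of its read depth with 0.38, while *larp-1*, at 5076, has 0.16.

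The listed members had longer gene spans at the median than the others, a difference that was not tested. The reference gives gene spans with introns and no transcript lengths. The 11 listed members had a median span of 3748 bp and a range of 2305 to 8726 bp, against a median of 2275 bp and a range of 1170 to 7697 bp for the 24 not listed. The shortest listed member was *daz-1*. The 13 shorter members, unlisted by this definition, include *oma-1*, *oma-2*, *pos-1*, *nos-1*, *nos-2*, *spn-4* and *mex-6*. The ranges overlap, since *lin-41* at 7697 bp, *mex-3* at 6986 bp and *fog-1* at 6321 bp are long and not listed.

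Across protein-coding genes of the reference, the share listed also varied with span and was highest among the longest genes. When protein-coding genes of the reference were divided into 5 equal parts by span, the shares listed were 3.02% in the shortest part, then 1.60%, 3.33%, 10.5% and 34.5% in the longest. In the parts from the second shortest to the longest, 0 of 4, 2 of 13, 5 of 11 and 4 of 7 members were listed, and no member fell in the shortest. With the shares of all protein-coding genes, which include genes that adults may not express, the members' spans would give 4.07 listed genes, beside 11. The members were chosen with earlier results of these data known, and this comparison was not tested. The folds of listed genes did not follow the same order. Among listed protein-coding genes the median log2 fold change was 6.54 in the shortest part, then 2.64, 1.56, 1.56 and 1.82 in the longest.

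**Figure D4:**
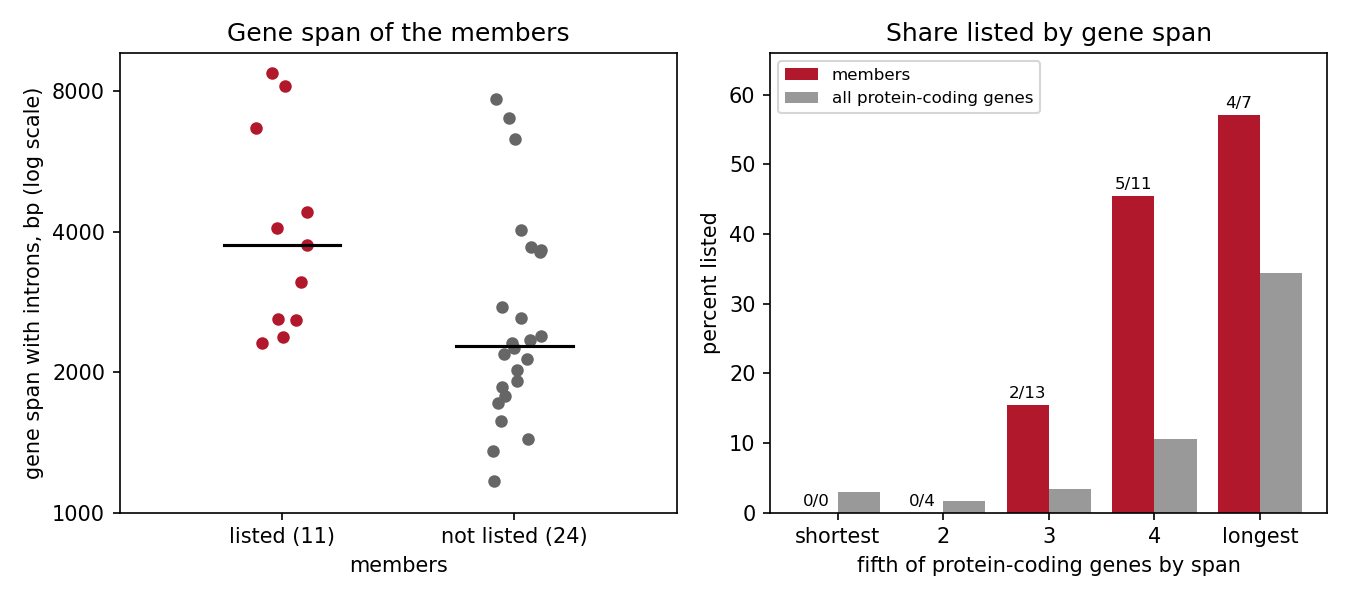
On the left each point is the gene span of 1 member on a log axis, with lines at the medians of 3748 bp (listed) and 2275 bp (not listed). On the right, bars give the percent of members and of all protein-coding genes listed in each of 5 equal parts by span, with the members' counts above them. Both were highest in the longest part, at 4 of 7 for members and 34.5% for all protein-coding genes. The latter were at 3.02%, 1.60% and 3.33% in the 3 shortest parts, where 0 of 4 and 2 of 13 members were listed in the parts that held any.

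By chromosome, 4 of 7 members on III, 3 of 7 on I, 2 of 11 on II, 1 of 5 on IV, 0 of 4 on V and the 1 on X were listed. The shares of listed protein-coding genes were 13.8% on III, 14.4% on I, 9.90% on II, 10.3% on IV, 6.07% on V and 13% on X. The members per chromosome are too few for a comparison.

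The mRNAs of some proteins that work with the members were listed as well. Of 34 genes for cap-binding, poly(A) and repression partners found in the reference, 14 were listed, 9 of them past the test against 2-fold. Beside this list and those that follow stand the shares of all tested genes, 13.4% listed and 6.64% past 2-fold. Their median was 2.21 (log2, from the authors' deposited table). The highest were *pab-2*, a poly(A)-binding protein gene, at 2.92 ± 0.21, and the PUF genes *fbf-1* at 2.84 ± 0.35 and *fbf-2* at 2.73 ± 0.31 (log2 ± SE, from the authors' deposited table). The lowest were the deadenylase gene *panl-2* at 1.28 ± 0.21, *gld-1* at 1.24 ± 0.21 and the GLD-2 partner gene *gld-3* at 1.15 ± 0.18 (log2 ± SE, from the authors' deposited table). The genes *rnp-8* and *gld-3*, which encode alternative partners of the same poly(A) polymerase, stood at 2.35-fold and 2.22-fold in the authors' deposited table.

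The next list holds 25 other mRNAs taken to be regulated by the members, written from general knowledge, in which *daf-12* and *ets-4* are of doubtful membership. Of the 25, 8 were listed and 3 passed 2-fold, and without the doubtful genes 6 of 23 were listed and 2 passed. Their median was 1.93 (log2, from the authors' deposited table). The highest was *mab-10*, a transcriptional cofactor gene repressed by LIN-41 in the soma, at 3.97 ± 0.38 (log2 ± SE, from the authors' deposited table). The nuclear receptor gene *daf-12* followed at 2.85 ± 0.32, and *lin-29*, a zinc finger gene also repressed by LIN-41, at 2.79 ± 0.58 (log2 ± SE, from the authors' deposited table). The mean of *lin-29* was only 24.7 normalized counts, and it did not pass 2-fold (adjusted p = 0.0163). Beside *mab-10* and *daf-12*, the gene that passed was *glp-1*, at 2.62 ± 0.23 with a mean of 1548 normalized counts (log2 ± SE, from the authors' deposited table). The lowest were *ets-4* at 1.19 ± 0.32, the germ granule gene *meg-1* at 1.09 ± 0.10 and *set-6* at 1.07 ± 0.26 (log2 ± SE, from the authors' deposited table). The members *nos-1*, *nos-2*, *mex-3* and *spn-4* are known as such regulated mRNAs too, and are not listed.

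In the oocyte-to-embryo switch and the protein turnover of the zygote, 11 of 32 other genes were listed and 6 passed 2-fold. Their median was 1.62 (log2, from the authors' deposited table). Polarity kinase genes led, *par-4* at 3.19 ± 0.50 and *par-1*, whose product acts with MEX-5, at 2.39 ± 0.16 (log2 ± SE, from the authors' deposited table). The next was *zyg-11*, a substrate receptor gene of the CUL-2 ubiquitin ligase, at 2.38 ± 0.21 (log2 ± SE, from the authors' deposited table). At the low end were *zer-1*, a further receptor gene of that ligase, at 1.48 ± 0.16, *cul-1* at 1.13 ± 0.13 and the Polo kinase gene *plk-1* at 1.06 ± 0.20 (log2 ± SE, from the authors' deposited table).

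Of 25 other genes of the sperm or oocyte decision found in the reference, 11 were listed and 7 passed 2-fold. Their median was 1.81 (log2, from the authors' deposited table). The terminal sex determination gene *tra-1* stood apart at 5.50 ± 0.32, or 45.4-fold, with a mean of 787 normalized counts (log2 ± SE, from the authors' deposited table). No listed member came near that value, *cpb-1* being 8.31-fold. The lowest of this list was the helicase gene *mog-4*, at 1.08 ± 0.10 (log2 ± SE, from the authors' deposited table), and *fbf-1*, *fbf-2*, *gld-1* and *gld-3*, given above, belong to it too.

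Of 45 other genes of germline, embryo or soma put together as RNA-binding protein genes and found in the reference, 11 were listed and 7 passed 2-fold. Their median was 2.72 (log2, from the authors' deposited table). The highest was *sam-10*, at 4.61 ± 0.49 (log2 ± SE, from the authors' deposited table), which is related to single-stranded DNA-binding proteins and may not belong in this list. Without it 10 of 44 were listed, 6 passed and the median was 2.50 (log2, from the authors' deposited table). The neuronal CELF-type gene *unc-75* stood at 3.64 ± 0.28 (log2 ± SE, from the authors' deposited table). A PUF gene outside the members, *puf-4*, stood at 3.06 ± 0.72 on a mean of only 6.96 normalized counts (log2 ± SE, from the authors' deposited table), and it did not pass 2-fold (adjusted p = 0.0286). The lowest, beside *gld-1*, were *sqd-1* at 2.02 ± 0.36 and *fox-1* at 1.31 ± 0.37 (log2 ± SE, from the authors' deposited table). The shares listed in these 5 lists lay between 24.4% and 44.0%, around the 31.4% of the members and against 13.4% of all tested genes. Some genes, such as *gld-1*, *fbf-1*, *fbf-2* and *gld-3*, stand in more than 1 list, so the shares are not independent. No difference between lists was tested.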

How the data were processed

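The 10 samples were grouped by title into 5 FLAG immunoprecipitates and 5 inputs. Named in the submitters' processing notes, without roles, are DESeq2 1.12.3, STAR 2.5.2b-0, Bowtie2 2.3.0 and Trim Galore, and the builds WBcel235 and ce11. The 1 file is the authors' comparison of 2732 genes. Per the file headers, its columns are baseMean (a signal: normalized counts averaged over libraries), the log2 fold change and standard error, the test score, and raw and adjusted p-values. The direction, immunoprecipitate over input, follows from the deposited description as enriched RNAs. No model was refitted.

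The number of tested genes, 20328, was recovered from the adjusted p-values, taking the smallest p above 0 as the next rank after 7 genes at 0; 96.2% of implied ranks were whole to 0.0001. The same ranks imply 762 further genes past the adjusted p of 0.01 that are not listed. Folds were tested against 2-fold as one-sided normal tests with Benjamini-Hochberg adjustment (SciPy 1.17.1), after a run on simulated data. Names were matched to the WBcel235 gene table by symbol or locus tag (2660 of 2732). Spans and overlaps come from that table, which gives no strand.

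The members and lists were chosen with earlier results of these data known, from general knowledge of the worm. All 35 members are named, and from each other list the 3 highest and 3 lowest listed genes, with *glp-1* added because it passed 2-fold. Protein features of the members had been planned and were not analysed here.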

Additional observations from a re-analysis of the deposited data

How the results depend on the processing

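No paired analysis was possible because the table gives no values per library, and for the same reason no replicate could be left out. Both had been planned. Matching names also by synonym and locus tag, a mean of at least 100 normalized counts and an adjusted p under 1e-04 each left 11 members listed, against 2732, 1676 and 2081 genes of the table. At 4-fold or more there were 6 members, 17.1% of the 35, against 1465 genes or 7.21% of those tested. The 6 members past 2-fold numbered 6 when adjusted over listed genes alone and at a threshold of 0.05, against 1744 and 1646 genes of the table, and 0 when tested against 4-fold, against 440. The median log2 fold change of the listed members, 2.14, was the same with the minimum mean, while that of all listed genes was 1.75 with it and 2.13 without, and a mean weighted by the inverse squared standard error, which gives *etr-1* most weight, was 1.66, against 1.84 for all listed genes. The share of genes listed, 13.4%, was 10.6% of protein-coding genes and 8.18% of the 5146 protein-coding genes with spans of 2079 to 3889 bp, the members' interquartile range. That last background, like the leaving out of doubtful list entries, was chosen after seeing the data, and stands in place of a planned one by protein length, which was not run. Precision is limited by the 5 libraries in each group.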
